A study of Mus musculus with 2 samples.

Results

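The genes of glycolysis and of the response to low oxygen were followed in 2 single-cell RNA libraries of mouse donor CD4 T cells taken from allergen-challenged lungs. The 34 members, of 32285 genes in the count tables, were listed by symbol: 25 act in or beside glycolysis and 9 belong to the hypoxia response. They were read over every barcode with at least 500 UMIs (unique molecular identifiers, the tag that marks each captured RNA molecule), at least 250 detected genes and at most 10% of UMIs from mitochondrially encoded genes. The rule used no measured value, although the list was drawn up with earlier results of these data known. All 34 symbols were in the tables, and 23 had at least 50 UMIs over both libraries. Another 10 had 1 to 49 UMIs (Slc2a1, Slc16a3, Pfkm, Aldoc, Ldhb, Pdk1, Pfkfb3, Pfkfb4, Tktl1 and Bnip3), and Ak4, a mitochondrial adenylate kinase, had 0 in both. Aldoa stands on 2 rows of the tables, of which the other held 0 UMIs.

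The cells of both groups came from wild-type donors that had inhaled house dust mite extract on day 0 and days 7 to 11. Lung CD4 T cells were enriched on day 14, labelled with the division dye Cell Trace Violet, and injected into a MARCH1-/- host or a WT host (C57BL/6). The recipients were then challenged with the same extract, and 4 days later the donor cells that had lost dye through division were sorted from their lungs. MARCH1 is a ubiquitin ligase of antigen-presenting cells that removes MHC class II and CD86 from their surface, so the deletion lies in the host and not in the cells sequenced. March1 had 0 UMIs in the cells of both libraries, which therefore gives no check of the host genotype. Each group is 1 library. The number of animals behind each is not stated in the labels, so host, animal and library preparation cannot be told apart, no test was possible, and every interval covers counting error only.

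Glycolysis splits glucose into pyruvate in a preparatory phase, which spends ATP, and a payoff phase, which returns it, and lactate dehydrogenase turns pyruvate into lactate so that the payoff phase can go on. Activated T cells take up more glucose and release lactate even where oxygen is plentiful, and effector cytokine output and proliferation draw on this route. HIF-1, whose oxygen-sensitive subunit is encoded by Hif1a, binds promoters of many glycolytic genes, and the prolyl hydroxylases encoded by Egln1 and Egln3 mark that subunit for breakdown when oxygen is present.

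Promoters are shown for the 5 glycolytic members on which the comparisons turn. Gapdh and Eno1 differed between the hosts in opposite directions. Aldoa was called higher in cytokine-positive non-cycling cells of both libraries, and Ldha in those of the WT host library. Pgk1 was called higher in cycling cells of both. Each promoter is a RefSeq window on build GRCm38.p6 of 250 bases before to 50 bases after a transcript start, written 5′ to 3′ on the gene's strand. Capitals mark ACGTG or GCGTG on either strand, the core of the motif that HIF-1 and related factors bind. The windows lie at chr6:125165724-125166023 (minus strand) for Gapdh, chr4:150236458-150236757 (plus strand) for Eno1, chr7:126799205-126799504 (minus strand) for Aldoa, chr7:46845554-46845853 (plus strand) for Ldha and chrX:106186850-106187149 (plus strand) for Pgk1. Where a gene had several windows (3 for Eno1, 3 for Aldoa, 2 for Ldha), the one with the most matches is printed.
Gapdh: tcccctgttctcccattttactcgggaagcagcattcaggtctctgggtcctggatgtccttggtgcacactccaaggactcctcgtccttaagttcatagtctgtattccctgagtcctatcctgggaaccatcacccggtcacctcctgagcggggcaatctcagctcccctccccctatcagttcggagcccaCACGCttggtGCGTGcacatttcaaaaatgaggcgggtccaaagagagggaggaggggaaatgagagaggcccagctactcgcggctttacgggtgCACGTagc
Eno1: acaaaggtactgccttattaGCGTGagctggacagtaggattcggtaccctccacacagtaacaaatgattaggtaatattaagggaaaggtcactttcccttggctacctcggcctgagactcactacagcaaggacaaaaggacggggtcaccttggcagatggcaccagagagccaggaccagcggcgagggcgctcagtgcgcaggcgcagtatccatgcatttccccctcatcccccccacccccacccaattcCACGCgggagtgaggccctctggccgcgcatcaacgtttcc
Aldoa: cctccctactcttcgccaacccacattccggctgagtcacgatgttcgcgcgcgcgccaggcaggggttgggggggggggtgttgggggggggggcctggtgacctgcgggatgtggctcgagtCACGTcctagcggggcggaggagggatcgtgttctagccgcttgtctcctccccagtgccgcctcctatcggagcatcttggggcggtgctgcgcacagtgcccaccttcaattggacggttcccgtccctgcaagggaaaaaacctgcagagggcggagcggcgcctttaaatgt
Ldha: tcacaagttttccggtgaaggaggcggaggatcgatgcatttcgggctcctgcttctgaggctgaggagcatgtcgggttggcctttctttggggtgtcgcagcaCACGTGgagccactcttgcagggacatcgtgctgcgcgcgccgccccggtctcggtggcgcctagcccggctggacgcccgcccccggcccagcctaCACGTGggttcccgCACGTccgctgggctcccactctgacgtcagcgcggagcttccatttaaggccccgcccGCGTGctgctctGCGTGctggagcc
Pgk1: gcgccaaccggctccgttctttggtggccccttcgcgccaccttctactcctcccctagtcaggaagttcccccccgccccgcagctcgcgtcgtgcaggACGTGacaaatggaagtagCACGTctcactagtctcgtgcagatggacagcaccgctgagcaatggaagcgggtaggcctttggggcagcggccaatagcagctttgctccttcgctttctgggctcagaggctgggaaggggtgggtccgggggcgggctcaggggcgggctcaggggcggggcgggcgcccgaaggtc

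The Ldha window held 7 matches, of which 4 come from its 2 copies of the palindrome CACGTG, since each palindrome reads as the core on both strands. Gapdh had 3 matches, Eno1 and Pgk1 had 2 each and Aldoa had 1. Windows were found for 32 of the 34 members, without Slc2a3 and Bnip3l. At least 1 match was present for 29 of these 32 genes (90.6%), against 46.7% of all 27025 genes with a window. The palindrome was present for 7 of the 32 (21.9%), against 8.09% of all genes. Member windows were also richer in G and C, at a median of 64.5% against 52.7% over all 32851 windows, and the part this has in the shares was not tested. Gapdh and Eno1 thus both carry the core, although their levels differed between the hosts in opposite directions. A match is a description of letters and not a binding site.

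The MARCH1-/- host library gave 156 cells with 1575581 UMIs and the WT host library gave 352 cells with 2571048 UMIs. The median cell held 8017 UMIs in the MARCH1-/- host library and 6086.5 in the WT host library. No cell barcode was shared. All 7 CD4 T cell markers were detected in both libraries, at a summed 3408 UMIs per 1e6 in the MARCH1-/- host library and 3033 in the WT host library. No UMI of the NK cell and neutrophil markers was found. The B cell markers that were detected summed to 104 per 1e6 in the MARCH1-/- host library and 22.2 in the WT host library, with Ms4a1 at 0 in both. The 8 genes of the dissociation stress list summed to 2584 per 1e6 in the MARCH1-/- host library and 1537 in the WT host library. The share of UMIs in ribosomal protein genes was 22.5% in the MARCH1-/- host library and 27.6% in the WT host library. The part of these differences in the host results was not tested.

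Levels are UMIs summed over cells and scaled to 1e6 (CPM), with exact Poisson 95% intervals. Because a molecule is counted once at its 3′ end, levels of different genes were set side by side without scaling to length. The members with most molecules were Gapdh (glyceraldehyde phosphate dehydrogenase) and Ldha (the muscle-type lactate dehydrogenase subunit) in the MARCH1-/- host library, and Ldha and Hif1a in the WT host library. Gapdh stood at 1248 CPM (1194 to 1305) in the MARCH1-/- host library and 437 (412 to 463) in the WT host library, and Ldha at 920 (874 to 969) in the MARCH1-/- host library and 717 (685 to 751) in the WT host library. Gapdh was thus the first member by level in the MARCH1-/- host library and Ldha in the WT host library.

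Within each step, a few members of a gene family carried nearly all the molecules. Ldha had 1450 UMIs in the MARCH1-/- host library and 1844 in the WT host library, and Ldhb, the heart-type subunit, had 9 in each. Aldoa, the aldolase of most tissues, had 678 and Aldoc, the brain form, 2 in the MARCH1-/- host library, with 922 of Aldoa and 6 of Aldoc in the WT host library. Of the phosphofructokinases, the platelet form Pfkp stood at 114 CPM in the MARCH1-/- host library and 102 in the WT host library, the liver form Pfkl at 16.5 in the MARCH1-/- host library and 15.9 in the WT host library, and the muscle form Pfkm at 2.54 in the MARCH1-/- host library and 3.11 in the WT host library. The same form therefore led each family in both libraries.

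Of the hexokinases, which trap glucose in the cell, Hk1 exceeded Hk2 in both libraries. Among transporters, the glucose carrier Slc2a3 (26.7 CPM in the MARCH1-/- host library, 30.7 in the WT host library) exceeded Slc2a1 (6.98 in the MARCH1-/- host library, 10.1 in the WT host library). Bnip3l, a mitophagy receptor, stood at 107 CPM in the MARCH1-/- host library and 94.9 in the WT host library, and its relative Bnip3 at 1.90 in the MARCH1-/- host library and 2.72 in the WT host library. For Ak4, 0 UMIs allow up to 1.90 CPM in the MARCH1-/- host library and 1.17 CPM in the WT host library, taking 3 counts as the limit.

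**Figure D1:**
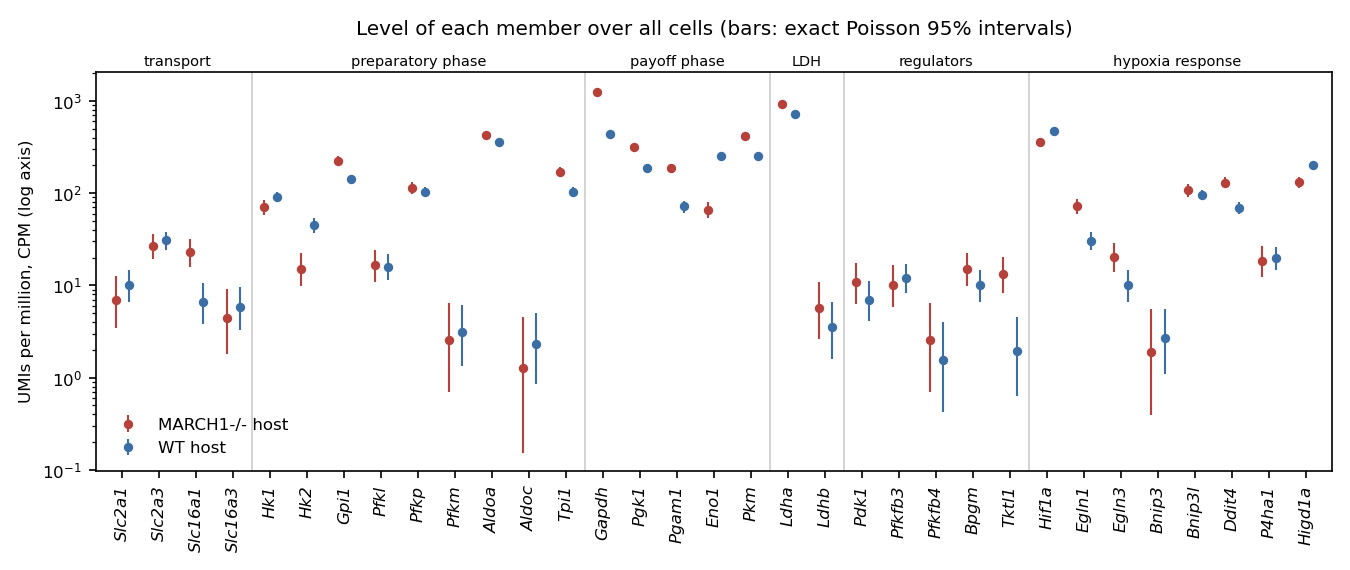
Level of each detected member over all cells, in CPM on a log axis, with members grouped by pathway step, the MARCH1-/- host library in red on the left of each pair and the WT host library in blue, and bars giving exact Poisson 95% intervals. Gapdh (1248 against 437) and Eno1 (66.0 against 252) are separated in opposite directions. The libraries lie closer together for Ldha, Aldoa and Pfkp, although of these only the bars of Pfkp overlap.

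To compare levels, the log2 ratio of each gene was set against that of the median gene among all genes with at least 50 UMIs in the cells compared. A gene is called higher or lower here when it lies at least 1.5-fold from the median gene and its exact conditional binomial 95% interval does not reach the median gene. The interval treats UMIs as independent draws and is too narrow where a few cells hold most UMIs of a gene. Genes below 50 UMIs are given by value and were not called. A call is a statement about 2 libraries or 2 sets of cells and not a test of a condition.

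Between the hosts the members diverged rather than moving as a block. Of the 23 members compared, 5 were called higher in the MARCH1-/- host library (Slc16a1, Gapdh, Pgam1, Egln1 and Ddit4), 5 lower (Hk1, Hk2, Eno1, Hif1a and Higd1a), and 13 were not called. Over all 6762 genes compared, 24.9% were called, 11.4% higher and 13.5% lower. The median member lay 0.11 above the median gene on the log2 scale. The median gene itself lay at a log2 ratio of 0.25. Without centring on it, 10 members were called higher (Gpi1, Tpi1, Pgk1, Pkm and Egln3 joined the 5 above) and 3 lower (Hk2, Eno1 and Higd1a), where 23.3% of all genes were called higher and 7.11% lower. Ratios below are log2, MARCH1-/- host over WT host, as scaled to total UMIs unless said to be relative to the median gene.

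Among the transporters, Slc16a1, a carrier of lactate and pyruvate (ENSMUSG00000032902, chr3:104638668-104658462, GRCm38), had 36 UMIs or 22.8 CPM (16 to 31.6) in the MARCH1-/- host library and 17 UMIs or 6.61 CPM (3.85 to 10.6) in the WT host library. Its log2 ratio of 1.79 was 1.54 once set against the median gene (0.67 to 2.46). Its counts are small: without the cell holding most of them the gene fell under the minimum of 50 UMIs, with a relative ratio of 1.58. Slc16a3, the lactate exporter of glycolytic cells, had 7 UMIs in the MARCH1-/- host library and 15 in the WT host library, too few to call. Slc2a3 was not called (relative ratio -0.46, -1.03 to 0.10).

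In the preparatory phase both hexokinases were called lower. Hk2, the inducible hexokinase bound to mitochondria (ENSMUSG00000000628, chr6:82725025-82774454), stood at 15.2 CPM (9.76 to 22.7; 24 UMIs) in the MARCH1-/- host library and 44.7 (36.9 to 53.7; 115 UMIs) in the WT host library. This is 2.94-fold lower in the MARCH1-/- host library, but the 5 cells highest in Hk2 held 62.5% of its UMIs in the MARCH1-/- host library and 41.7% in the WT host library. Hk1 (ENSMUSG00000037012, chr10:62268855-62379908) stood at 69.8 CPM in the MARCH1-/- host library and 90.6 in the WT host library. Its log2 ratio of -0.38 passed the limit only relative to the median gene (-0.63, -0.97 to -0.30), and the call was lost in 5 of 13 alternatives.

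The remaining preparatory enzymes were not called. Gpi1, the isomerase that makes fructose 6-phosphate, stood at 225 CPM in the MARCH1-/- host library and 142 in the WT host library. Tpi1, which interconverts the triose phosphates, stood at 168 CPM in the MARCH1-/- host library and 102 in the WT host library. Aldoa, which splits the 6-carbon sugar, stood at 430 CPM in the MARCH1-/- host library and 359 in the WT host library, a ratio of 0.01 relative to the median gene (-0.13 to 0.16). Pfkp, an isoform of the committing enzyme, had a relative ratio of -0.10 (-0.38 to 0.18). The 9 preparatory members summed to 1043 CPM in the MARCH1-/- host library and 862 in the WT host library, 0.02 from the median gene (-0.07 to 0.12).

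In the payoff phase, Gapdh and Pgam1 were called higher and Eno1 lower. Gapdh (ENSMUSG00000057666, chr6:125161715-125166467) had 1967 UMIs in the MARCH1-/- host library and 1123 in the WT host library, although the WT host library held more UMIs in all. Its level was 2.86-fold higher in the MARCH1-/- host library (log2 1.52, 1.41 to 1.62). Eno1, the enolase of most tissues (ENSMUSG00000063524, chr4:150236721-150248879), had 104 UMIs or 66.0 CPM (53.9 to 80.0) in the MARCH1-/- host library and 647 UMIs or 252 CPM (233 to 272) in the WT host library. This is 3.81-fold lower in the MARCH1-/- host library (log2 -1.93, -2.24 to -1.63). These 2 enzymes, separated by 2 steps of the same pathway, thus stood 2.86-fold higher and 3.81-fold lower.

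Pgam1, the mutase between them (ENSMUSG00000011752, chr19:41911923-41918660), stood at 185 CPM (164 to 207) in the MARCH1-/- host library and 71.6 (61.6 to 82.7) in the WT host library, a log2 ratio of 1.37. Relative to the median gene this was 1.12 (0.84 to 1.39), against 0.16 and no call with each cell thinned to 1000 UMIs. Pgk1, the first ATP-forming step, stood at 314 CPM (287 to 342) in the MARCH1-/- host library and 187 (171 to 205) in the WT host library. Pkm, pyruvate kinase, stood at 411 CPM (380 to 444) in the MARCH1-/- host library and 252 (233 to 273) in the WT host library. Pgk1 and Pkm lay 0.49 and 0.45 above the median gene, short of the 1.5-fold limit. Eno1 was thus the 1 payoff member of 5 below the median gene, with the other 4 above it.

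Eno1 and Gapdh are also the members whose transcript ends are shared to the largest extent with annotated transcripts of other genes. Of the 50-base words in the last 300 bases of their transcripts in the GENCODE M21 annotation, 86.9% for Eno1 were found in 7 other genes, 6 of them pseudogenes, and 78.3% for Gapdh in 175 other genes, 168 of them pseudogenes. Reads from these stretches match several genes, and the labels do not state how such reads were counted, so both levels are uncertain. Eno1b, the copy of Eno1 that the tables list, had 13 UMIs in the MARCH1-/- host library and 36 in the WT host library, and the part of the copies in the Eno1 difference was not tested. Among the other called members Higd1a shared 20.9% of its words, while Slc16a1, Hk1, Hk2, Pgam1, Hif1a, Egln1 and Ddit4 shared none. Shares from 12.7% to 46.8% were found for Ldhb, Aldoa, Tpi1, Ldha, Pkm, Gpi1, Pfkp, Ak4 and Bnip3. The words of Ldha, shared at 20.5%, were found in 13 other genes, all pseudogenes, which is more genes than for Eno1.

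Ldha (ENSMUSG00000063229, chr7:46841475-46855627), which makes lactate, was not called between the hosts, with a log2 ratio of 0.36 and 0.11 relative to the median gene (0.01 to 0.21). The regulators and side-branch enzymes were rare. Bpgm, which makes bisphosphoglycerate, had 24 UMIs in the MARCH1-/- host library and 26 in the WT host library and was not called. Tktl1, a relative of transketolase, had 21 UMIs (13.3 CPM, 8.25 to 20.4) in the MARCH1-/- host library and 5 (1.94 CPM, 0.63 to 4.54) in the WT host library, below the minimum for a call. Pdk1, which inhibits pyruvate dehydrogenase, had 17 UMIs in the MARCH1-/- host library and 18 in the WT host library. Pfkfb3, which makes an activator of phosphofructokinase, had 16 UMIs in the MARCH1-/- host library and 31 in the WT host library. Pfkfb4 had 4 in each.

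In the hypoxia response, Hif1a was called lower and Egln1 higher in the MARCH1-/- host library. Hif1a (ENSMUSG00000021109, chr12:73901375-73947530) stood at 360 CPM (331 to 391) in the MARCH1-/- host library and 475 (448 to 502) in the WT host library, which gave a relative ratio of -0.65 (-0.79 to -0.50). Egln1, the main HIF prolyl hydroxylase (ENSMUSG00000031987, chr8:124908587-124949324), stood at 72.4 CPM (59.7 to 86.9) in the MARCH1-/- host library and 30.3 (24 to 37.9) in the WT host library, 2.38-fold higher. Egln3, a hydroxylase that HIF itself induces, had 32 UMIs (20.3 CPM) in the MARCH1-/- host library and 26 (10.1 CPM) in the WT host library and was not called (relative ratio 0.75, -0.04 to 1.56). The call of Hif1a was lost in 5 of 13 alternatives and that of Egln1 in 1.

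Ddit4, an inhibitor of mTORC1 signalling induced by stress (ENSMUSG00000020108, chr10:59949669-59951834), stood at 129 CPM (112 to 148) in the MARCH1-/- host library and 69.2 (59.4 to 80.2) in the WT host library. Higd1a, a mitochondrial protein of the respiratory chain supercomplexes (ENSMUSG00000038412, chr9:121848563-121858362), stood at 131 CPM (113 to 150) in the MARCH1-/- host library and 200 (183 to 218) in the WT host library. Ddit4 was called higher, at a relative ratio of 0.65, and Higd1a lower, at -0.86. Bnip3l (-0.08 relative, -0.37 to 0.21) and P4ha1, a collagen prolyl hydroxylase (-0.36, -1.07 to 0.33), were not called.

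**Figure D2:**
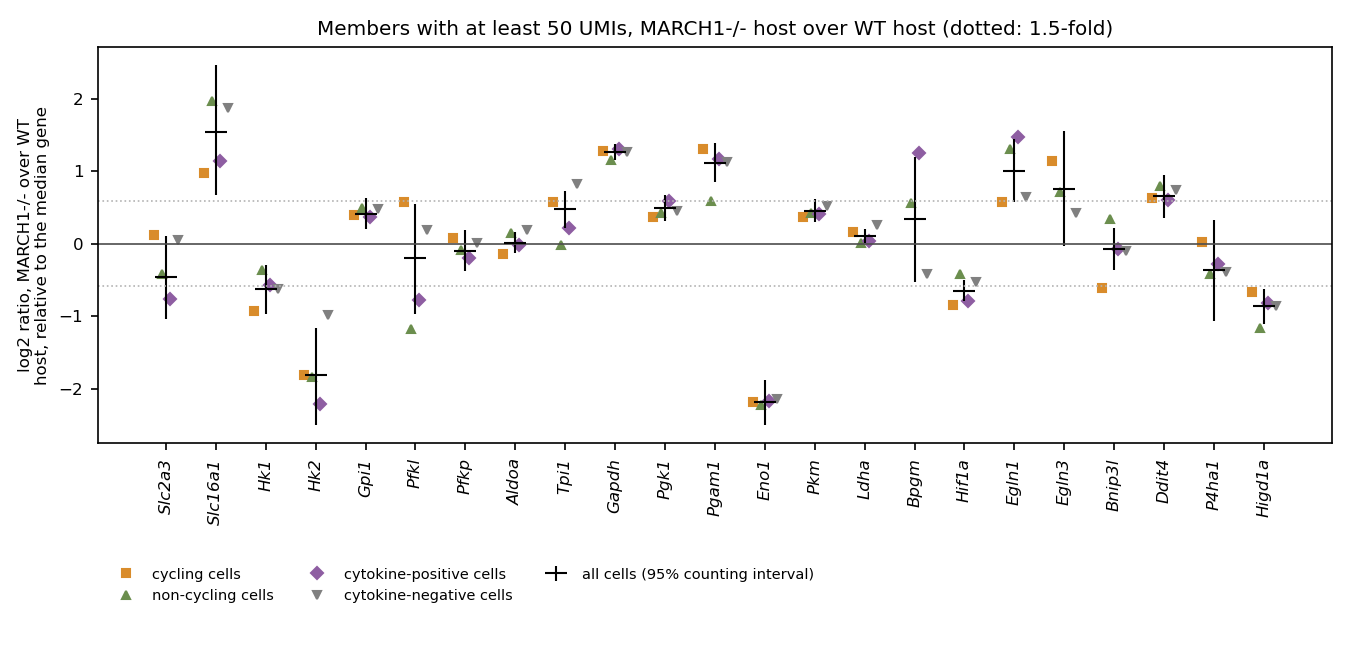
Log2 ratio of the MARCH1-/- host library over the WT host library, relative to the median gene, for the 23 members with at least 50 UMIs; the black mark is all cells with its 95% counting interval, the coloured marks are cell classes with at least 20 UMIs of the gene, and dotted lines mark 1.5-fold. Gapdh lies above and Eno1 below the dotted lines in all 4 classes, whereas the classes of Slc2a3, Pfkl and Bpgm scatter to both sides.

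Summed over the 25 glycolytic members, the level was 4306 CPM (4204 to 4409) in the MARCH1-/- host library and 2868 (2803 to 2934) in the WT host library, 0.33 above the median gene (0.29 to 0.38). The ratio was smaller without Gapdh, at sums of 3057 CPM in the MARCH1-/- host library and 2431 in the WT host library. These lay 0.08 above the median gene (0.02 to 0.13). The sum without Gapdh still held Eno1, which was 3.81-fold lower in the MARCH1-/- host library and drew the ratio down. The 5 payoff members lay 0.64 above the median gene (0.57 to 0.71) with Gapdh included. The 9 hypoxia-response members summed to 841 CPM in the MARCH1-/- host library and 902 in the WT host library. This was 0.35 below the median gene (-0.45 to -0.25). Hif1a alone held 568 of the 1325 UMIs of this sum in the MARCH1-/- host library and 1220 of 2318 in the WT host library. Hif1a and Higd1a were called lower, whereas Egln1 and Ddit4 were called higher. The sum therefore does not stand for each member. For comparison, nuclear genes of oxidative phosphorylation lay at -0.66 and mitochondrially encoded genes at -0.13 relative to the median gene.

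The host differences were examined again within cell classes. A cell was called cycling when at least 3 UMIs and at least 0.5% of its UMIs came from a list of 46 cell cycle genes, which holds no member, and cytokine-positive when it had at least 1 UMI of Il4, Il5 or Il13. Cycling cells were 46 of 156 (29.5%, exact binomial 95% interval 22.5 to 37.3) in the MARCH1-/- host library and 71 of 352 (20.2%, 16.1 to 24.8) in the WT host library. Cytokine-positive cells were 57 of 156 (36.5%) in the MARCH1-/- host library and 137 of 352 (38.9%) in the WT host library. The 3 cytokines together stood at 419 CPM in the MARCH1-/- host library and 1117 in the WT host library.

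Gapdh, Pgam1 and Ddit4 were called higher, and Eno1 and Higd1a lower, in the MARCH1-/- host library in each of the 4 classes. In cycling cells 9 of 17 members were called between the hosts, where 27.0% of all genes were. In non-cycling cells it was 7 of 19 (25.0% of all genes), in cytokine-positive cells 9 of 18 (26.5%) and in cytokine-negative cells 8 of 16 (26.4%). The log2 ratio of Gapdh was 1.52 in cycling, 1.39 in non-cycling, 1.5 in cytokine-positive and 1.53 in cytokine-negative cells. That of Eno1 was -1.94 in cycling, -1.98 in non-cycling, -1.97 in cytokine-positive and -1.87 in cytokine-negative cells. Both differences were thus about as large within each class as over all cells.

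Egln1 was called higher in 3 classes and lay 0.57 above the median gene in cycling cells, just under the limit. Hk2 was called lower in 3 classes, among them cytokine-positive cells with 17.1 CPM in the MARCH1-/- host library and 68.8 in the WT host library. In cytokine-negative cells it had 12 UMIs in the MARCH1-/- host library and 30 in the WT host library, too few to call. Its relative ratio there was -0.98 (-2.08 to 0.03). Whether the host ratio differed between classes was not tested. Barcodes with 1 to 100 UMIs, taken here as empty droplets with free RNA, showed the same directions: Gapdh had 1004 CPM in the MARCH1-/- host library and 432 in the WT host library there (log2 1.22), and Eno1 had 82.7 in the MARCH1-/- host library and 205 in the WT host library (log2 -1.31). The part of free RNA in the values of the cells was not tested.

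A list of 71 other genes of glucose metabolism and hypoxia, of which 70 are in the tables, was read the same way. Of 35 with enough UMIs, 5 were called higher in the MARCH1-/- host library and 0 lower, where 11.4% of all genes were called higher and 13.5% lower. The higher share is near that of all genes. The 5 were Tkt and Taldo1, the transketolase and transaldolase of the pentose phosphate pathway, Mdh2, the mitochondrial malate dehydrogenase, Mpc1, a subunit of the mitochondrial pyruvate carrier, and Anxa2, an annexin. Tkt stood at 186 CPM in the MARCH1-/- host library and 95.3 in the WT host library, and Mpc1 at 137 in the MARCH1-/- host library and 67.7 in the WT host library. The lowest were Mxi1, Bhlhe40 and Epas1, none of them called.

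Cycling cells were compared with non-cycling cells inside each library. Tpi1 and Pgk1 were called higher in cycling cells of both libraries. In the MARCH1-/- host library 16 members were compared, of which 4 were called higher (Tpi1, Pgk1, Pgam1 and Higd1a) and 1 lower (Bnip3l), where 31.2% of 4327 genes were called, 16.5% higher and 14.7% lower. In the WT host library 19 were compared, of which 3 were called higher (Tpi1, Pgk1 and Egln1) and 1 lower (Slc2a3), where 23.9% of 5198 genes were called, 13.6% higher and 10.3% lower. The members' share of calls thus lay near the background in both libraries.

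Tpi1 (ENSMUSG00000023456, chr6:124810586-124814296) stood at 239 CPM in cycling and 97.7 in non-cycling cells of the MARCH1-/- host library, and at 136 in cycling and 84.4 in non-cycling cells of the WT host library. The log2 ratios were 1.29 in the MARCH1-/- host library and 0.69 in the WT host library. Pgk1 (ENSMUSG00000062070, chrX:106187100-106203699) stood at 384 CPM in cycling and 244 in non-cycling cells of the MARCH1-/- host library, and at 251 in cycling and 154 in non-cycling cells of the WT host library. Its log2 ratios were 0.66 in the MARCH1-/- host library and 0.70 in the WT host library. These calls depended on the settings: that of Pgk1 was lost in 5 of 15 alternatives in the MARCH1-/- host library, where its lowest relative ratio was 0.32 in cells of 4000 to 12000 UMIs, and in 3 of 15 in the WT host library. That of Tpi1 was lost in 1 of 15 in the MARCH1-/- host library and in 3 of 15 in the WT host library, where its relative ratio was 0.08 with cycling set at 1% of UMIs. With each cell thinned to 1000 UMIs, neither Tpi1 nor Pgk1 was called in either library. No test compared the ratios between libraries.

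Pgam1 was called in the MARCH1-/- host library, with 258 CPM in cycling and 112 in non-cycling cells, and lay 0.56 above the median gene in the WT host library (0.12 to 1.0), just under the limit. All 5 payoff members lay above the median gene in both libraries, and their sum lay 0.58 above it (0.48 to 0.68) in the MARCH1-/- host library and 0.47 (0.37 to 0.58) in the WT host library. Gapdh reached a relative ratio of 0.50 in the MARCH1-/- host library and 0.41 in the WT host library, and Eno1 one of 0.28 in the MARCH1-/- host library and 0.26 in the WT host library. Neither was called. The 2 enzymes that differed in opposite directions between the hosts thus lay on the same side within each library.

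Of the preparatory members before Tpi1, none with enough UMIs was called. Aldoa had a relative ratio of -0.14 (-0.36 to 0.08) in the MARCH1-/- host library and 0.17 (-0.03 to 0.37) in the WT host library, and Gpi1 one of -0.16 in the MARCH1-/- host library and -0.05 in the WT host library. Hk1 lay at -0.42 in the MARCH1-/- host library and 0.15 in the WT host library, and Pfkp at -0.19 in the MARCH1-/- host library and -0.34 in the WT host library. Pfkl had 19 UMIs in cycling and 7 in non-cycling cells of the MARCH1-/- host library, and 12 in cycling and 29 in non-cycling cells of the WT host library, too few to call. None of the 5 regulators had enough UMIs for a call, and they did not all lean one way. Pfkfb3 had 2 UMIs in cycling and 14 in non-cycling cells of the MARCH1-/- host library, and 4 in cycling and 27 in non-cycling cells of the WT host library. Tktl1 had 3 UMIs in cycling and 18 in non-cycling cells of the MARCH1-/- host library, and 0 in cycling and 5 in non-cycling cells of the WT host library. Pdk1 had 7 UMIs in cycling and 10 in non-cycling cells of the MARCH1-/- host library, and 9 in each of the WT host library, which is 10.3 CPM in cycling and 5.31 in non-cycling cells there. The 5 regulators summed to 26.7 CPM in cycling and 77.4 in non-cycling cells of the MARCH1-/- host library, and to 20.5 in cycling and 38.9 in non-cycling cells of the WT host library.

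In the hypoxia response, Bnip3l (ENSMUSG00000022051, chr14:66985239-67008877) stood at 64.8 CPM in cycling and 150 in non-cycling cells of the MARCH1-/- host library, and at 83.3 in cycling and 101 in non-cycling cells of the WT host library, where it was not called. Higd1a stood at 160 CPM in cycling and 102 in non-cycling cells of the MARCH1-/- host library. Its call did not hold in a narrower range of depth: among cells with 4000 to 12000 UMIs, which leave 11 cycling cells in that library, the relative ratio was -0.52. Depth was not matched there, with a median of 9068 UMIs in cycling and 7214.5 in non-cycling cells. Egln1 stood at 43.4 CPM in cycling and 23.6 in non-cycling cells of the WT host library. Its call there was lost in 5 of 15 alternatives, and that of Bnip3l in the MARCH1-/- host library in 2 of 15. Both were lost in cells of 4000 to 12000 UMIs. Hif1a was not called in either library.

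Slc2a3, called lower in cycling cells of the WT host library with 14.8 CPM against 39.0 in non-cycling cells, rested on 1 cell. That cell, non-cycling and cytokine-positive, held 28 of the gene's 79 UMIs in this library, and without it the relative ratio was -0.55 and not called. Cycling cells were also the deeper ones. Their median was 14856.5 UMIs against 6512 in non-cycling cells of the MARCH1-/- host library, and 11710 against 5130 in those of the WT host library, and the part of depth was not tested beyond the alternative above. The summed glycolytic level lay 0.39 above the median gene (0.32 to 0.46) in the MARCH1-/- host library and 0.30 (0.23 to 0.37) in the WT host library, and in cells of 4000 to 12000 UMIs 0.20 above it in the MARCH1-/- host library and 0.17 in the WT host library. With cycling set at 1% of UMIs it was 0.29 in the MARCH1-/- host library and -0.08 in the WT host library. Nuclear oxidative phosphorylation genes lay 0.28 above the median gene in the MARCH1-/- host library and 0.29 in the WT host library.

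**Figure D3:**
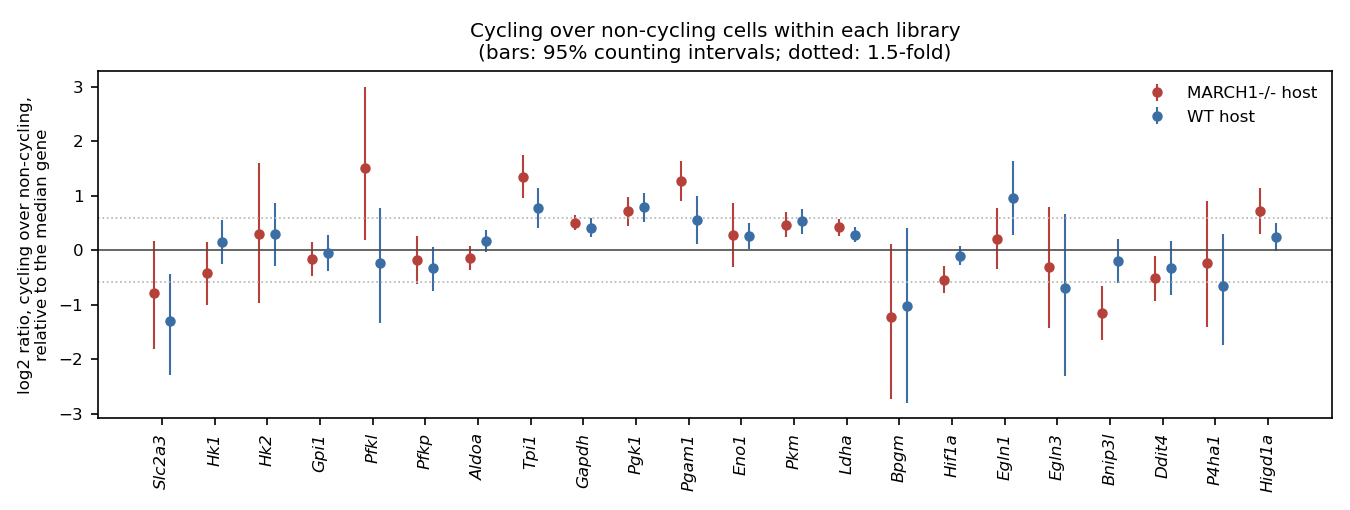
Log2 ratio of cycling over non-cycling cells, relative to the median gene, for the members with at least 20 UMIs in each library, with the MARCH1-/- host library in red on the left and the WT host library in blue; bars are 95% counting intervals and dotted lines mark 1.5-fold. Tpi1 and Pgk1 lie above the upper dotted line in both libraries, and the payoff enzymes from Gapdh to Pkm all lie above 0.

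Of the other pathway genes, Mif, a secreted cytokine that HIF induces, was called higher in cycling cells of both libraries, with 497 CPM in cycling and 208 in non-cycling cells of the MARCH1-/- host library and 342 in cycling and 223 in non-cycling cells of the WT host library. Anxa2 was also called higher in both. In the MARCH1-/- host library 3 of 22 were called higher (Mif, Anxa2 and Me2, a mitochondrial malic enzyme) and 2 lower (Got1, an aspartate aminotransferase, and Bhlhe40, a transcription factor). Of all genes there, 16.5% were called higher and 14.7% lower. In the WT host library 5 of 25 were called higher (Mif, Anxa2, Tkt, Pgd and Pdk3) and 0 lower. Of all genes there, 13.6% were called higher and 10.3% lower. Tkt and Pgd belong to the pentose phosphate pathway, which supplies ribose for nucleotides.

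Cytokine-positive and cytokine-negative cells were compared among non-cycling cells, so that cycling cells did not enter. Aldoa stood higher and Bnip3l lower in cytokine-positive cells of both libraries. In the MARCH1-/- host library, with 38 cytokine-positive and 72 cytokine-negative cells, 2 of 15 members were called higher (Aldoa and Pgk1) and 1 lower (Bnip3l), where 14.0% of 2534 genes were called, 6.71% higher and 7.34% lower. In the WT host library, with 103 cytokine-positive and 178 cytokine-negative cells, 5 of 17 were called higher (Slc2a3, Hk2, Aldoa, Tpi1 and Ldha) and 1 lower (Bnip3l), where 15.1% of 3983 genes were called, 6.30% higher and 8.76% lower. Of the glycolytic members compared, 9 of 10 lay above the median gene in the MARCH1-/- host library and 13 of 13 in the WT host library.

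Aldoa (ENSMUSG00000030695, chr7:126795234-126800751) stood at 650 CPM in cytokine-positive and 311 in cytokine-negative cells of the MARCH1-/- host library, and at 484 in cytokine-positive and 238 in cytokine-negative cells of the WT host library. The log2 ratios were 1.06 in the MARCH1-/- host library and 1.03 in the WT host library, and relative to the median gene 1.07 (0.76 to 1.39) in the MARCH1-/- host library and 1.02 (0.78 to 1.27) in the WT host library. Among these non-cycling cells, Aldoa thus lay about as far apart between cytokine-positive and cytokine-negative cells in each library. Between the hosts it lay at the median gene. Ldha stood at 938 CPM in cytokine-positive and 703 in cytokine-negative cells of the MARCH1-/- host library, and at 856 in cytokine-positive and 537 in cytokine-negative cells of the WT host library. It was called in the WT host library, at a relative ratio of 0.67 (0.50 to 0.84), and not in the MARCH1-/- host library, at 0.43 (0.20 to 0.65), and the difference between these ratios was not tested. The Ldha call in the WT host library was lost in 5 of 16 alternatives, with a relative ratio of 0.58 without the cell holding most of its UMIs and 0.46 in cells of 4000 to 12000 UMIs. The Aldoa call was lost in the MARCH1-/- host library after thinning to 1000 UMIs, at 0.37, and held under all 16 alternatives in the WT host library.

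Hk2 stood at 61.7 CPM in cytokine-positive and 26.2 in cytokine-negative cells of the WT host library, from 48 UMIs in cytokine-positive and 24 in cytokine-negative cells. In the MARCH1-/- host library it had 9 UMIs in cytokine-positive and 2 in cytokine-negative cells, too few to call, with a relative ratio of 2.54 (0.27 to 5.80). Among cycling cells it had 3 UMIs in cytokine-positive and 10 in cytokine-negative cells of the MARCH1-/- host library, and 37 in cytokine-positive and 6 in cytokine-negative cells of the WT host library, also too few to call. Tpi1 stood at 112 CPM in cytokine-positive and 61.1 in cytokine-negative cells of the WT host library, and at 98.7 in cytokine-positive and 96.9 in cytokine-negative cells of the MARCH1-/- host library. Pgk1 stood at 299 CPM in cytokine-positive and 201 in cytokine-negative cells of the MARCH1-/- host library, and at 186 in cytokine-positive and 127 in cytokine-negative cells of the WT host library, with relative ratios of 0.59 in the MARCH1-/- host library and 0.55 in the WT host library on either side of the limit. The Pgk1 call in the MARCH1-/- host library was lost in 7 of 16 alternatives, and that of Tpi1 in the WT host library in 4 of 16.

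Gapdh was not called in this comparison, nor was Eno1 in the WT host library, at a relative ratio of 0.40 (0.11 to 0.69). In the MARCH1-/- host library Eno1 had 28 UMIs in cytokine-positive and 20 in cytokine-negative cells, too few to call, with a relative ratio of 0.86 (-0.02 to 1.77). Gapdh had a relative ratio of 0.25 (0.05 to 0.45) in the MARCH1-/- host library and 0.31 (0.09 to 0.53) in the WT host library. Pkm had one of -0.03 in the MARCH1-/- host library and 0.18 in the WT host library. The preparatory members together lay 0.60 above the median gene (0.40 to 0.81) in the MARCH1-/- host library and 0.68 (0.52 to 0.83) in the WT host library, and the payoff members 0.26 (0.11 to 0.41) in the MARCH1-/- host library and 0.35 (0.21 to 0.48) in the WT host library. Aldoa held the most UMIs of any member of the preparatory sum. Among steps with over 100 CPM, the payoff phase stood farthest from the median gene in cycling cells and the preparatory phase in cytokine-positive cells. That limit was not set beforehand and leaves out the regulators, which stood farther from the median gene in cycling cells. In the WT host library Ldha alone, at 0.67, lay about as far as the preparatory sum in cytokine-positive cells. The difference between the phases, and how far it rests on Aldoa, was not tested.

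Bnip3l stood at 102 CPM in cytokine-positive and 187 in cytokine-negative cells of the MARCH1-/- host library, and at 77.1 in cytokine-positive and 121 in cytokine-negative cells of the WT host library. Its call was lost in 3 of 16 alternatives in each library. These included thinning to 1000 UMIs in both, and cells of 4000 to 12000 UMIs in the WT host library. Hif1a was not called, at 372 CPM in cytokine-positive and 482 in cytokine-negative cells of the MARCH1-/- host library and 478 in cytokine-positive and 510 in cytokine-negative cells of the WT host library. Egln3 had 8 UMIs in cytokine-positive and 10 in cytokine-negative cells of the MARCH1-/- host library, and 3 in cytokine-positive and 17 in cytokine-negative cells of the WT host library. The summed hypoxia response lay at -0.27 (-0.49 to -0.06) in the MARCH1-/- host library and -0.07 (-0.22 to 0.07) in the WT host library relative to the median gene, while the glycolytic sum lay at 0.37 (0.27 to 0.48) in the MARCH1-/- host library and 0.53 (0.44 to 0.61) in the WT host library.

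Slc2a3 was called higher in cytokine-positive cells of the WT host library, with 44 UMIs in them and 22 in cytokine-negative cells. This again was the 1 cell with 28 UMIs: without it the relative ratio was -0.15. Cytokine-positive cells were deeper, with a median of 8613.5 UMIs against 5646.5 in cytokine-negative cells of the MARCH1-/- host library and 7225 against 4519.5 in those of the WT host library, and a cell with more UMIs is more likely to show a cytokine UMI. Among cells with 4000 to 12000 UMIs the glycolytic sum of the WT host library lay 0.34 above the median gene.

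**Figure D4:**
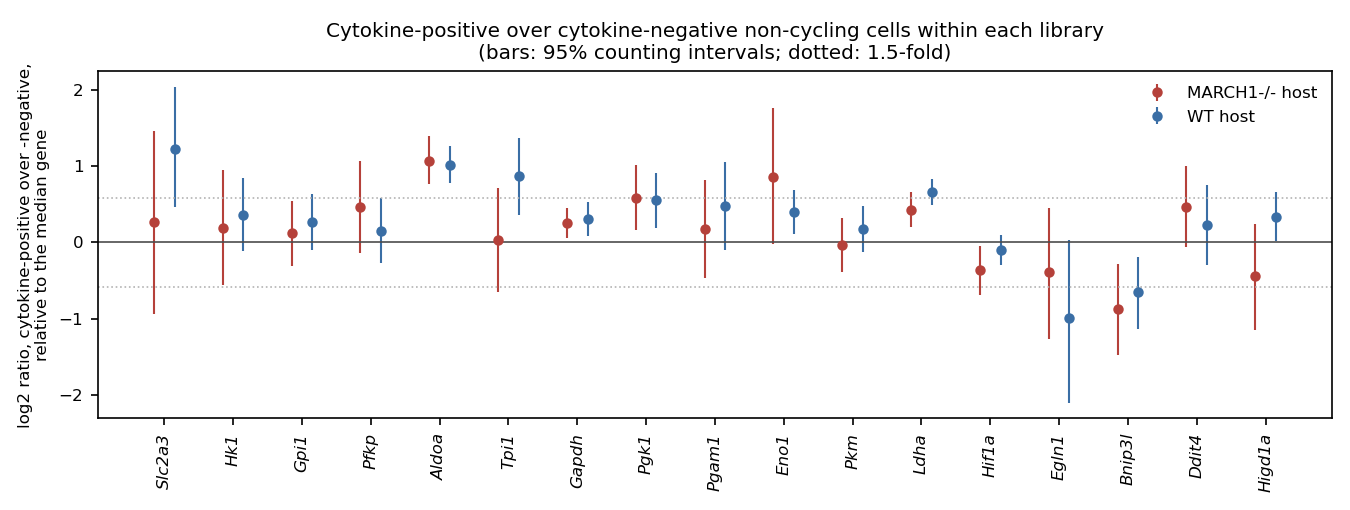
Log2 ratio of cytokine-positive over cytokine-negative cells among non-cycling cells, relative to the median gene, for the members with at least 20 UMIs in each library, with the MARCH1-/- host library in red on the left and the WT host library in blue; bars are 95% counting intervals and dotted lines mark 1.5-fold. Aldoa lies near 1 in both libraries (1.07 and 1.02), and Bnip3l is below the lower dotted line in both.

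Among cycling cells the comparison rested on 19 cytokine-positive and 27 cytokine-negative cells of the MARCH1-/- host library and 34 cytokine-positive and 37 cytokine-negative cells of the WT host library. Egln1 and Higd1a were called higher and Pfkp lower in the MARCH1-/- host library, 3 of 15 members where 12.0% of all genes were called. In the WT host library Aldoa was called higher, with 472 CPM in cytokine-positive and 265 in cytokine-negative cells. It was the 1 member of 15 called, where 14.5% of all genes were called. In the MARCH1-/- host library Aldoa stood at 441 CPM in cytokine-positive and 368 in cytokine-negative cycling cells. Its relative ratio there was 0.28 (-0.05 to 0.61), and it was not called. Over all cells, cycling or not, 2 of 16 members were called in the MARCH1-/- host library (11.5% of all genes) and 5 of 19 in the WT host library (13.1%), with Aldoa higher and Bnip3l lower in both.

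Of the other pathway genes, Ero1l, an oxidase of disulphide formation in the endoplasmic reticulum that HIF induces, was called higher in cytokine-positive non-cycling cells of both libraries. It stood at 102 CPM in cytokine-positive and 47.3 in cytokine-negative cells of the MARCH1-/- host library, and at 117 in cytokine-positive and 44.7 in cytokine-negative cells of the WT host library. Mdh1, the cytosolic malate dehydrogenase, was the other of 2 called among 17 in the MARCH1-/- host library, where 14.0% of all genes were called. In the WT host library Mxi1, a MYC antagonist, was called lower, the other of 2 among 21, where 15.1% of all genes were called.

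Cell by cell, the 25 glycolytic members took a median of 0.38% of UMIs (0.06 to 0.76) in the MARCH1-/- host library and 0.24% (0 to 0.69) in the WT host library. In cycling cytokine-positive cells the median was 0.46% in the MARCH1-/- host library and 0.33% in the WT host library, and in cycling cytokine-negative cells 0.45% in the MARCH1-/- host library and 0.28% in the WT host library. In non-cycling cytokine-positive cells it was 0.41% in the MARCH1-/- host library and 0.29% in the WT host library, and in non-cycling cytokine-negative cells 0.31% in the MARCH1-/- host library and 0.19% in the WT host library. In each of these 4 classes the ranges of the libraries overlapped widely.

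**Figure D5:**
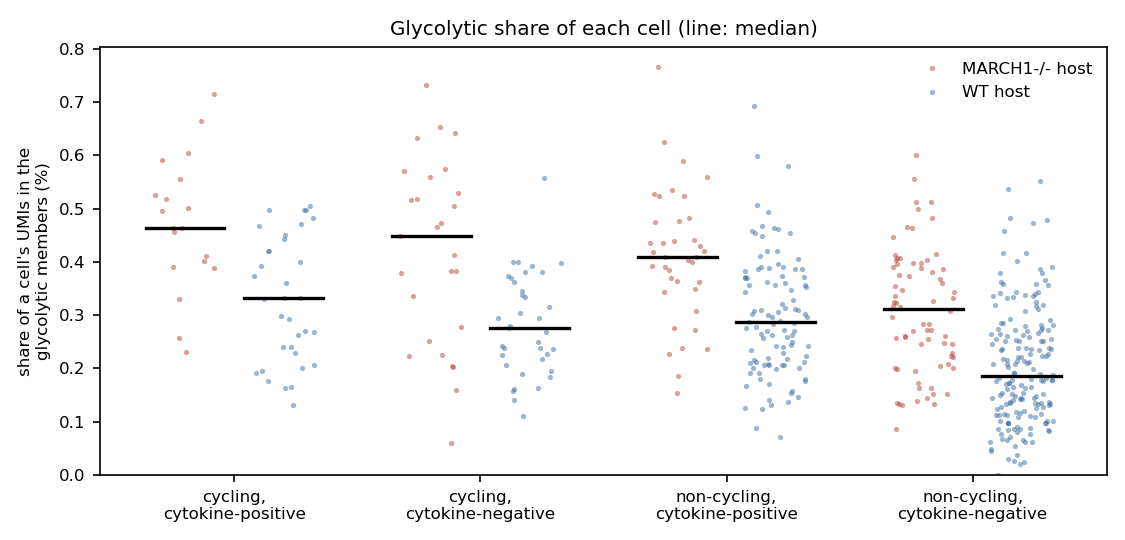
Share of each cell's UMIs that fell in the 25 glycolytic members, in percent, for 4 cell classes, with the MARCH1-/- host library in red on the left of each pair, the WT host library in blue and a line at the median. The median is highest in cycling cytokine-positive cells (0.46% in the MARCH1-/- host library, 0.33% in the WT host library) and lowest in non-cycling cytokine-negative cells (0.31% and 0.19%).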

How the data were processed

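Donor CD4 T cells were profiled with a 10x Chromium 3′ kit, version 3.1 per the labels' protocols. Each deposited matrix gives raw counts, a whole number of UMIs for a gene and a barcode, for 32285 genes and with empty barcodes kept. The submitters' processing notes name Cell Ranger 3.1.0 and build mm10, but the file headers give version 4. Neither source says which version made these counts, nor on which annotation. The deposited gene and barcode tables hold names only. Library totals were 1934068 UMIs (MARCH1-/- host) and 3753437 (WT host), of which cells held 81.5% in the MARCH1-/- host library and 68.5% in the WT host library.

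Here the deposited counts were added up over cells and scaled to counts per 1e6 (CPM). Doublets were kept in the main values, since the barcode rule keeps them, and removed in an alternative (Scrublet in scanpy 1.11.5, expected rate 0.05: 5 in each library). With 1 library per group no test was run. Intervals (exact Poisson, conditional binomial, Clopper-Pearson, 95%) cover counting error only. The calling rule was run on simulated data. These were pooled counts drawn under the same counting model as the interval, so they could not show how spread between cells affects the calls. Named genes were all 34 members, the 3 highest and 3 lowest of the other pathway genes in each comparison, and listed copies; other called pathway genes were named after their values were seen, as were cells singled out. Members and lists were chosen with earlier results of these data known. Positions and types come from GENCODE M21 (GRCm38), matched by gene ID, and promoter windows from RefSeq (GRCm38.p6). Analyses ran in Python 3.11.15 with scipy 1.17.1, numpy 2.4.6 and pandas 2.3.3, and plots in matplotlib 3.10.9.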

Additional observations from a re-analysis of the deposited data

How the results depend on the processing

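Values are log2 ratios relative to the median gene, or numbers of members called. The alternatives chosen after seeing the data were cells with 4000 to 12000 UMIs, the sum without Eno1, and each called member without the cell holding most of its UMIs. The cause of a change was not tested beyond the construction of the alternative: thinning each cell to 1000 UMIs leaves fewer UMIs, and a 2-fold limit admits fewer genes. Between the hosts, the calls of Gapdh and Eno1 held under every alternative run, and of the 10 called members 8 lost the call under at least 1. The glycolytic sum, 0.33, was 0.44 after thinning, 0.59 without centring on the median gene, 0.39 with no filter on UMIs per gene, 0.17 in cells of 4000 to 12000 UMIs, 0.079 without Gapdh and 0.44 without Eno1. The hypoxia sum, -0.35, was -0.23 with cells weighted equally, -0.13 after thinning, -0.10 without centring and -0.17 in cells of 4000 to 12000 UMIs. The number of members called, 10, was 6 after thinning and 6 at a 2-fold limit. Of the 10, only Gapdh, Eno1 and Higd1a kept the call after thinning, so the 6 called then include other members.

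For cycling over non-cycling cells of the MARCH1-/- host library, 5 members were called. The number was 3 after thinning, at a 2-fold limit, with cycling at 1% of UMIs and in cells of 4000 to 12000 UMIs, and 8 with no filter. After thinning none of the 5 kept its call, so the 3 called then were other members. In cells of 4000 to 12000 UMIs, Pgk1, Bnip3l and Higd1a lost the call. The glycolytic sum, 0.39, was 0.48 after thinning, 0.28 without the 5% of cells highest in glycolytic genes, 0.29 with cycling at 1%, 0.47 with cycling by any Mki67 UMI and 0.20 in cells of 4000 to 12000 UMIs, and the hypoxia sum, -0.34, was -0.092 with cycling at 1%. Higd1a reversed to -0.52 in cells of 4000 to 12000 UMIs. In the WT host library, 4 members were called. The number was 7 with cells weighted equally, 2 after thinning, 8 with no filter and 1 at a 2-fold limit. After thinning none of the 4 kept its call, so the 2 called then were other members. The glycolytic sum, 0.30, was 0.42 with cells weighted equally, 0.44 after thinning, 0.22 without centring, 0.40 with cycling by Mki67 and 0.17 in cells of 4000 to 12000 UMIs, and it reversed to -0.080 with cycling at 1%. Slc2a3 reversed to 0.72 with cycling by Mki67 and 0.15 in cells of 4000 to 12000 UMIs.

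For cytokine-positive over cytokine-negative non-cycling cells of the MARCH1-/- host library, the 3 calls became 0 after thinning, 5 with no filter, 1 at a 2-fold limit, 1 with at least 3 cytokine UMIs and 6 in cells of 4000 to 12000 UMIs. The glycolytic sum, 0.37, was 0.24 after thinning and 0.21 with cycling at 1%. In the WT host library, the 6 calls became 2 after thinning, 3 at a 2-fold limit and 2 in cells of 4000 to 12000 UMIs. The glycolytic sum, 0.53, was 0.64 after thinning, 0.44 with cycling at 1% and 0.34 in cells of 4000 to 12000 UMIs. The hypoxia sum, -0.07, was -0.29 with cells weighted equally, -0.44 after thinning, -0.31 with cycling by Mki67 and -0.27 in cells of 4000 to 12000 UMIs. Slc2a3 reversed to -0.41 with cells weighted equally, -0.076 without the 5% of cells highest in glycolytic genes, -0.66 with cycling by Mki67, -0.54 in cells of 4000 to 12000 UMIs and -0.15 without the cell holding most of its UMIs. No paired analysis was possible because each group is 1 library, and for the same reason no replicate could be left out. The 10 members with 1 to 49 UMIs were too shallow for a call.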
